A study of Mus musculus with 36 samples.

Results

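The genes described here build the machinery that copies DNA: the factors that load and start the replicative helicase, the polymerases, the sliding clamp with its loader, the proteins that coat single strands and join fragments, and the enzymes that supply nucleotides. The set is a list of 41 genes written down by name, and each gene is represented by the brightest, on average across the arrays, of the probe sets that name it alone. Of the 41 genes, 40 were measured among 18193 genes on the array; Chaf1a, a subunit of the histone chaperone that follows the fork, had no probe set naming it alone. No measured difference entered the choice, although the list was drawn up with earlier results of these data known.

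Expression was measured on 36 one-colour Affymetrix arrays of sorted C57BL6 mouse cells, in 8 populations of early blood and thymus development. All arrays carry an age label of 1 week and a sex label covering both sexes, and no genetic change or treatment is named for any group. The arrays form 2 normalization sets with different baselines, so that levels are compared only within a set. Set 1 holds 15 arrays, 3 for each of 5 populations, from samples described as pools of several mice; set 2 holds 21 arrays in 7 populations.

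Haematopoietic stem cells, sorted as LSKFlt3-CD48-CD150+ (HSC), the bone marrow population LSKFlt3hi IL7R+ (LSK), early thymic progenitors with high Flt3 (ETP) and DN3 thymocytes had 3 arrays in each set. DN2Kit+ thymocytes (DN2) had 3 arrays in set 1. Common lymphoid progenitors (CLP) had 4 arrays, early thymic progenitors titled adult had 2, and B cell progenitors (pro-B) had 3, all in set 2. The titled adult arrays carry the same label of 1 week as the others. The study thus allows the replication genes to be followed from stem cells to committed T and B cell precursors.

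In the G1 phase, the origin recognition complex, Cdc6 and Cdt1 place the Mcm2 to Mcm7 helicase on DNA in an inactive form; at the start of S phase, Mcm10, Cdc45 and the GINS complex turn it into a moving fork. Polymerase alpha with primase begins each strand, polymerases delta and epsilon extend them, and Pcna, loaded by the Rfc complex, keeps those polymerases on DNA. Many of these genes are transcribed from late G1 under E2F factors. Long-term stem cells of the adult marrow are known to be largely out of cycle, while lymphoid progenitors divide. The arrays here carry a younger age label, and whether the sorted stem cells were out of cycle was not tested.

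RefSeq promoter windows (mouse build GRCm38.p6, 300 bases, from 250 before the transcription start to 50 after it) were given for 35 of the 41 genes. An E2F motif, spelled TTNNCGC with C or G at each N and searched on both strands, was in 21 of these 35 windows (60.0%), against 9.69% of all 27025 promoter windows and 14.2% of the 14452 windows of genes on the array. Matches on opposite strands can overlap. The CCAAT box (CCAAT, both strands) was in 62.9% of the replication windows, 37.9% of all windows and 38.2% of those of genes on the array. The cell cycle homology region (TTTGAA, both strands) was in 11.4%, 18.1% and 13.3%, and the GC box (GGGCGG, both strands) in 74.3%, 35.9% and 54.0%. In 18 windows of mitosis genes, used below as a comparison list, the E2F motif was in 16.7%, the CCAAT box in 88.9%, the cell cycle homology region in 72.2% and the GC box in 83.3%. A match is a string of letters, not a measured site.

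The stretches printed here lie before the transcription start and read 5′ to 3′ on the gene's strand, with E2F matches in capitals. Cdc6, Rrm2, Rrm1, Pola1 and Rpa3 are examples of genes higher in LSK than in HSC in both sets with a match before the start. Mcm5, Mcm7 and Rpa2 were so too. Cdt1, Pold1 and Rfc4 were higher in both sets as well, with matches only after the start. Dut, Fen1, Mcm10, Pcna, Orc6, Pola2, Pold2, Rfc5 and Rpa1 were also higher in both sets but have no match in their windows. Orc1, Chaf1b and Mcm6 have matches and passed in neither set. A link between the motif and the rise was not tested. Mcm6 is shown because its stretch holds 4 matches while its span over the populations of set 1 was among the 3 narrowest. Their positions are chr11:98907913-98908032 (plus strand) for Cdc6, chr12:24708004-24708123 (plus) for Rrm2, chr7:102441528-102441647 (plus) for Rrm1, chrX:93632257-93632376 (minus) for Pola1, chr6:8259151-8259270 (minus) for Rpa3 and chr1:128359729-128359848 (minus) for Mcm6.
Cdc6: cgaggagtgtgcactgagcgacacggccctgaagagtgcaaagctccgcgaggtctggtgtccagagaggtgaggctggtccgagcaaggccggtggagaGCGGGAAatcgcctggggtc
Rrm2: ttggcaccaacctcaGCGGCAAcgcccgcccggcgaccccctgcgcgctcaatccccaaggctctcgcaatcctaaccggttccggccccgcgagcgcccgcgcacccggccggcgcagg
Rrm1: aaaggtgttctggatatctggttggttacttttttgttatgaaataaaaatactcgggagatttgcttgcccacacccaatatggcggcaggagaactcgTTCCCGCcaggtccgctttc
Pola1: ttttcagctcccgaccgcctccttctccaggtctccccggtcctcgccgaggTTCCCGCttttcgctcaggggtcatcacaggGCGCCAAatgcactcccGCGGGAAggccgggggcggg
Rpa3: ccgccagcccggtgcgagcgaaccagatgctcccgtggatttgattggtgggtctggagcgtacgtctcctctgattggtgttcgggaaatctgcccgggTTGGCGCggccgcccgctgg
Mcm6: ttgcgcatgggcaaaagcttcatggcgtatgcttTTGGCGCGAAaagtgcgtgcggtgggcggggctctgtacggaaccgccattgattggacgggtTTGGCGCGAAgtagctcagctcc

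Marker genes were checked against the labels. The mean over 6 stem cell markers was 9.27 to 9.47 on the 6 HSC arrays and at most 6.35 elsewhere; the mean over 6 B lineage markers was 11.42 to 11.64 in pro-B cells, and that over 6 T lineage markers 10.18 to 11.43 in DN2 and DN3. In set 2 the B lineage mean was also 9.04 to 9.34 in LSK and 7.47 to 8.69 in CLP, against 6.27 to 6.63 in HSC. All 6 B lineage markers were called higher in LSK than in HSC there. All 6 lay lower in CLP than in LSK, with 1 called. The mean over 5 lymphoid progenitor markers was 10.49 to 11.58 in LSK and CLP, 8.46 to 9.97 in ETP and 4.49 to 5.49 in HSC. For the T lineage markers, ETP arrays were at 4.64 to 4.79 in set 1, where HSC were at 4.12 to 4.55. In set 2, ETP were at 4.98 to 5.35 and HSC at 4.61 to 4.84. ETP thus lay a little above HSC within each set and far below DN3. Of the 6 markers, 1 was called higher in ETP than in LSK in each set. The mean of 7 late granulocyte markers varied within populations, from 5.76 to 8.76 in CLP and 6.76 to 7.51 in pro-B cells. In set 1 it ran from 4.20 to 5.86 in HSC and 4.52 to 7.11 in LSK. In set 2 it ran from 5.16 to 7.50 in HSC and 4.96 to 6.06 in LSK. The part of this list in the results was not tested. In sorted but mixed cells, fewer cycling cells and less RNA of a gene per cell cannot be told apart.

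The 40 replication genes as a group were lowest in HSC and highest in DN2 or pro-B cells. Their mean log2 level in set 1 was 8.68 ± 0.16 in HSC, 9.45 ± 0.07 in LSK, 9.54 ± 0.07 in ETP, 9.80 ± 0.03 in DN2 and 9.43 ± 0.06 in DN3 (SD, n = 3 each). In set 2 it was 8.76 ± 0.13 in HSC, 9.55 ± 0.07 in LSK, 9.45 ± 0.05 in CLP (n = 4), 9.51 ± 0.07 in ETP, 9.36 ± 0.03 in titled adult ETP (n = 2), 9.40 ± 0.08 in DN3 and 9.82 ± 0.03 in pro-B cells. HSC had the lowest population mean for 38 of the 40 genes in set 1 and for 33 in set 2. DN2 had the highest for 34 genes in set 1, and pro-B cells the highest for 27 in set 2. How often these populations were lowest or highest over all genes was not counted. Of the 4226 genes of mean level over 8, 2736 lay higher in LSK than in HSC in set 1 and 2839 in set 2. The span from lowest to highest population mean had a median of 1.05 in set 1 and 1.32 in set 2, against 0.51 and 0.64 over all genes.

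**Figure D1:**
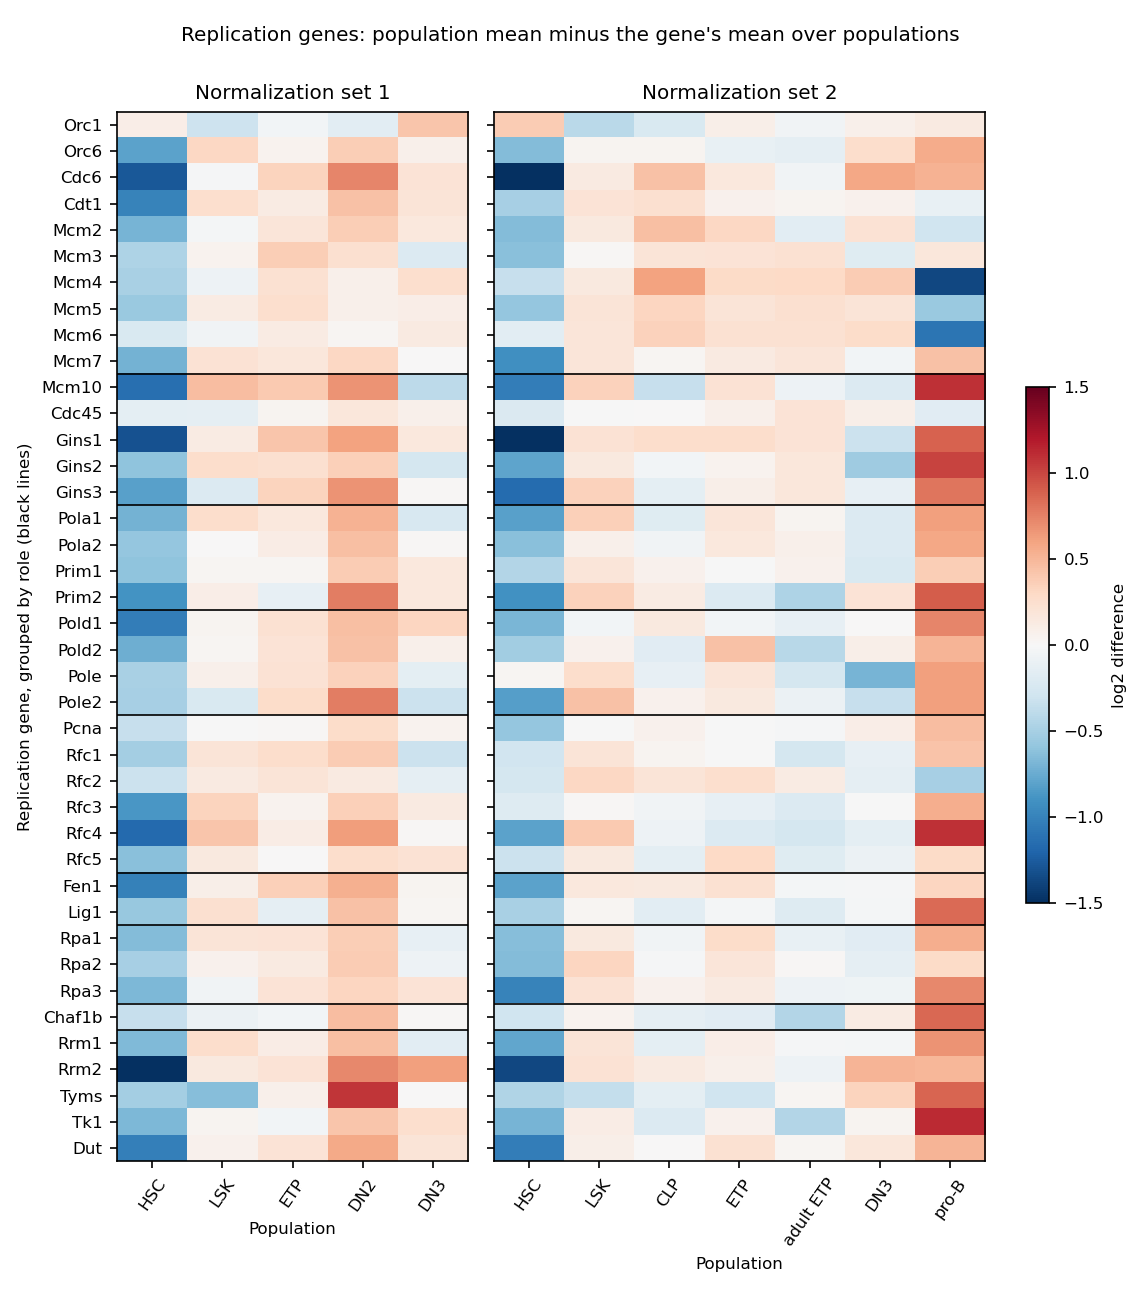
Colour gives each replication gene's population mean minus its mean over the populations of the same set (log2), with genes in rows grouped by role, set 1 on the left and set 2 on the right. The HSC column is lowest for 38 genes in set 1 and 33 in set 2, DN2 is highest for 34 in set 1 and pro-B for 27 in set 2, while Mcm4 and Mcm6 are low in pro-B cells.

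The step from HSC to LSK moved most of the machinery. In set 1, 28 of 40 replication genes were higher in LSK and 0 lower (limma, Benjamini-Hochberg adjusted p under 0.05 over all genes); of all genes, 17.4% were called and 9.38% were higher. In set 2, on separate arrays, 29 were higher and 0 lower, where 17.5% of all genes were called and 9.58% were higher. The median difference of the 40 genes was 0.74 in both sets, with all genes at 0.00 and 0.03 and the 4226 genes of mean level over 8 at 0.17 and 0.21. The 2 lists of higher genes shared 24 members, and the difference between the sets was itself called for 0 of 40 genes (5 at an unadjusted p under 0.05; 0.423% of all genes called). Asking also for at least 2-fold left 11 genes in set 1 and 12 in set 2, where 8.65% and 8.78% of all genes passed in either direction. A list of 5 immediate early genes, which respond to handling of cells, had list means in LSK below those in HSC, with 0 of 5 genes called in set 1 (list means 9.91 to 10.59 against 10.69 to 11.03) and 4 of 5 lower in set 2 (8.23 to 8.93 against 9.61 to 11.50); its part in the result was not tested. The late granulocyte markers were called for 0 of 7 in both sets. Macrophage markers were called lower in LSK for 0 of 5 in set 1 and 1 of 5 in set 2 (list means 4.40 to 4.50 in LSK against 5.49 to 5.77 in HSC), stroma and epithelium markers for 0 and 1 of 5, and erythroid markers for 1 of 4 in each set; their part was not tested.

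Among the loading factors, Cdc6, the ATPase that recruits the helicase to origins, had the widest range. In set 1 Cdc6 read 7.44, 7.02 and 6.61 on the HSC arrays and 8.28, 8.43 and 8.16 on the LSK arrays; in set 2 it read 7.08, 6.88 and 6.56 in HSC and 8.79, 8.67 and 8.79 in LSK. Every LSK array lay above every HSC array of its set. Arrays of these populations did not overlap, in either direction, for 72.5% of members in set 1 and 77.5% in set 2. Over all genes the shares were 28.5% and 32.3%. Members shown array by array were mostly chosen for wide range in set 1. The difference was 1.27 (SE 0.21, adjusted p = 3.24e-05 by limma) in set 1 and 1.90 (SE 0.21, adjusted p = 3.52e-08) in set 2.

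Of the 10 loading genes, 5 rose in set 1 and 7 in set 2. Orc6, a subunit of the origin recognition complex, Cdt1, the partner of Cdc6, and the helicase subunits Mcm5 and Mcm7 rose in both sets, by 0.68 to 1.25 in set 1 and 0.69 to 1.10 in set 2. Mcm2 and Mcm3 passed in set 2, at 0.80 and 0.64, and had 0.68 and 0.51 in set 1. Mcm4 and Mcm6 passed in neither, with 95% intervals of the difference from -0.26 to 1.09 and -0.28 to 0.62 in set 1. The other Mcm4 probe set gave 0.72 and 1.11, against 0.41 and 0.50 on the one used. Orc1, the largest subunit of the origin complex, pointed the other way, at -0.40 in set 1 and -0.78 in set 2, without passing. Its HSC arrays read 6.79 to 6.92 and its LSK arrays 5.77 to 7.52 in set 1, and the other Orc1 probe set gave 0.33 and 0.38.

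The genes that activate the helicase showed some of the steepest rises. Gins1, a GINS subunit, read 8.55, 8.36 and 7.85 in HSC and 9.68, 9.80 and 9.55 in LSK in set 1, and 8.61, 8.05 and 7.71 against 9.80, 9.87 and 9.81 in set 2. The ranges did not meet in either set, and the differences were 1.43 (SE 0.18, adjusted p = 5.14e-07 by limma) and 1.71 (SE 0.18, adjusted p = 1.98e-08). Mcm10, a scaffold needed for helicase firing, rose by 1.59 (SE 0.32) and 1.39 (SE 0.32), and Gins2 by 0.85 and 0.94. Gins3 rose by 1.5 in set 2 and had 0.62 in set 1, and the difference between the sets was not called. Cdc45, which joins GINS at the helicase, had 0.01 and 0.21 and passed in neither, but its other probe set, of nearly the same mean (6.79 against 6.82), gave 0.78 and 0.71.

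At the start of each strand, all 4 genes of polymerase alpha and primase rose in set 1 and 3 of them in set 2. Prim2, the regulatory primase subunit, read 7.22, 7.55 and 7.41 in HSC and 8.66, 8.15 and 8.36 in LSK in set 1, and 7.34, 7.51 and 8.06 against 8.84, 8.92 and 8.90 in set 2. HSC and LSK arrays were apart in both sets, with differences of 1.00 (SE 0.17, adjusted p = 7.09e-05 by limma) and 1.25 (SE 0.17, adjusted p = 2.19e-06). Pola1, the catalytic subunit, rose by 0.98 and 1.17 and Pola2 by 0.59 and 0.70; Prim1, which makes the primer, rose by 0.64 in set 1 and had 0.62 in set 2 (adjusted p = 0.0536).

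Of the 4 polymerase delta and epsilon genes, 2 rose in set 1 and 3 in set 2. Pold1, the catalytic subunit of delta, read 8.75, 10.17 and 9.26 in HSC and 10.61, 10.47 and 10.32 in LSK in set 1, and 9.97, 9.91 and 9.91 against 10.49, 10.58 and 10.67 in set 2. The 3 HSC arrays of set 1 differed widely among themselves but stayed below LSK, with differences of 1.07 (SE 0.23) and 0.65 (SE 0.23). Pold2 rose by 0.76 and 0.58. Pole2, an epsilon subunit, rose by 1.25 in set 2 and had 0.27 in set 1, and Pole, the catalytic subunit of epsilon, passed in neither at 0.56 and 0.24.

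All 6 clamp and clamp loader genes rose in set 1 and 4 in set 2. Rfc4, a loader subunit, read 7.97, 7.84 and 7.87 in HSC and 9.46, 9.41 and 9.54 in LSK in set 1, and 8.01, 8.35 and 8.40 against 9.89, 9.30 and 9.13 in set 2. No HSC array reached an LSK array, and the differences were 1.57 (SE 0.19, adjusted p = 3.64e-07 by limma) and 1.19 (SE 0.19, adjusted p = 2.91e-05). Pcna, the clamp itself, moved less, by 0.34 (SE 0.12) and 0.57 (SE 0.12). Rfc2 rose by 0.46 and 0.57 and Rfc5 by 0.77 and 0.47, whereas Rfc1 and Rfc3 passed in set 1, at 0.69 and 1.20, and had 0.48 and 0.21 in set 2.

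Fen1, the nuclease that trims the flaps of Okazaki fragments, read 11.29, 11.07 and 10.52 in HSC and 12.23, 12.03 and 11.91 in LSK in set 1, and 10.92, 10.97 and 10.87 against 11.92, 11.87 and 11.85 in set 2. The arrays were fully separated, at 1.10 (SE 0.14) and 0.96 (SE 0.14). Lig1, the ligase that seals them, rose by 0.81 in set 1 and had 0.52 in set 2 (adjusted p = 0.0663 by limma).

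The 3 subunits of the single-strand binding protein RPA rose in both sets. Rpa1, the largest subunit, read 10.07, 10.28 and 10.04 in HSC and 10.98, 10.93 and 11.01 in LSK in set 1, and 9.61, 9.20 and 9.71 against 10.46, 10.28 and 10.14 in set 2. The separation was complete, at 0.84 (SE 0.14) and 0.79 (SE 0.14). Rpa2 rose by 0.57 and 0.97 and Rpa3 by 0.61 and 1.23. Chaf1b, of the histone chaperone CAF-1, passed in neither set, at 0.26 and 0.34; its HSC arrays read 8.29, 8.39 and 7.82 and its LSK arrays 8.33, 8.43 and 8.52 in set 1, so that the ranges overlapped.

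Rrm2, the regulated subunit of ribonucleotide reductase, gave the largest rise of the 40 genes in set 1. It read 9.09, 8.54 and 9.26 in HSC and 10.72, 10.91 and 10.72 in LSK in set 1, and 10.32, 9.49 and 9.82 against 11.37, 11.56 and 11.44 in set 2. Each LSK array was above each HSC array, with differences of 1.82 (SE 0.18, adjusted p = 5.19e-09 by limma), a 3.54-fold rise, and 1.58 (SE 0.18, adjusted p = 7.62e-08). Rrm1, the partner subunit, rose by 0.92 and 0.97 and Dut, which removes dUTP, by 1.09 and 1.13. Tk1, a thymidine salvage kinase, rose by 0.82 in set 2 and had 0.72 in set 1 (adjusted p = 0.0583). Tyms, which makes dTMP, passed in neither, at -0.13 and 0.10, with intervals from -0.96 to 0.70 and from -0.73 to 0.93.

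**Figure D2:**
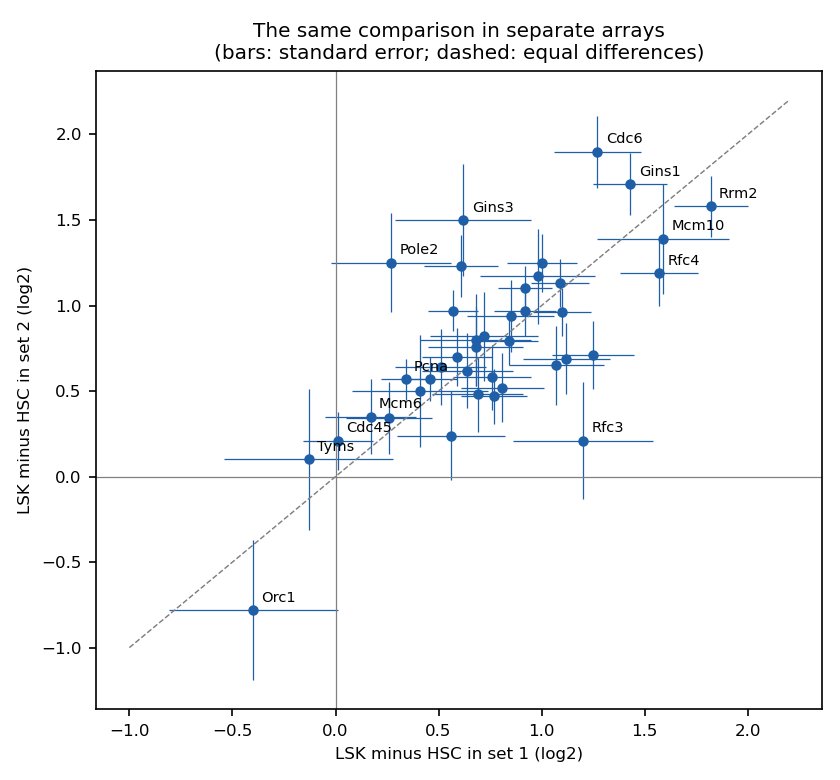
Each point is a replication gene, with its LSK minus HSC difference (log2) in set 1 on the horizontal axis and in set 2 on the vertical axis; bars are standard errors and the dashed line marks equal differences. Of the 40 points, 38 lie above 0 in set 1 and 39 in set 2, Rrm2, Gins1, Cdc6, Mcm10 and Rfc4 are far out in both, and Orc1 lies below 0 in both.

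The narrowest members in set 1 were Cdc45, Mcm6 and Rfc2, with spans of 0.32, 0.36 and 0.51. Cdc45 read from 6.34 to 7.14 over the arrays of set 1 and from 6.47 to 7.23 over those of set 2, and its population means ran from 6.55 to 6.87 in set 1. Its other probe set moved further in set 1, by 0.71 from ETP to DN2 and -0.76 from DN2 to DN3, so the narrow span belongs to the probe set used. Mcm6 read 11.80, 11.96 and 11.68 in HSC and 11.89 to 12.07 in LSK in set 1, a small and overlapping step near the top of the scale. A second Mcm6 probe set, of mean 10.38 over all arrays, gave LSK minus HSC differences of 0.85 and 1.00, so the flat reading belongs to the brighter probe set. Rfc2 was at 10.06, 10.27 and 9.82 in HSC and 10.45, 10.51 and 10.59 in LSK.

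From LSK to ETP, the first thymic stage measured, no replication gene passed in either set with limma. In set 1 the count was 0 of 40 (0 at an unadjusted p under 0.05; 2.53% of all genes called), with differences from -0.38 to 0.71 and a median of 0.07. In set 2 it was 0 of 40 (2 at an unadjusted p under 0.05; 1.84% of all genes called), with differences from -0.60 to 0.49 and a median of -0.05. The difference between the sets was called for 0 of 40 genes (0 at an unadjusted p under 0.05; 0.033% of all genes called).

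From ETP to DN2, Prim2 was the 1 replication gene called, where 4.26% of all genes were called and 2.12% were higher. It read 8.04, 8.13 and 8.36 in ETP and 8.80, 9.22 and 9.16 in DN2, a difference of 0.88 (SE 0.17, adjusted p = 0.000858 by limma). The groups did not overlap, as for 52.5% of members and 22.5% of all genes in either direction. Of the other 2 Prim2 probe sets 1 gave 0.77 and the dimmest -0.06. Most other members lay a little higher in DN2: 34 of 40 differences were above 0, against 8463 of 18193 over all genes. Their median was 0.26 against -0.02 over all genes. In limma 10 members had an unadjusted p under 0.05, all upward, and the share of all genes at that threshold was not counted. Tyms had the largest difference, at 1.00 (SE 0.41, adjusted p = 0.238 by limma), with 6.94 to 7.82 in ETP and 7.92 to 8.44 in DN2.

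From DN2 to DN3, 7 replication genes were lower and 0 higher, where 5.46% of all genes were called and 3.25% were lower. They were Mcm10, which fell by 1.08 (SE 0.32, adjusted p = 0.046), Pole2, which fell by 1.10 (SE 0.29, adjusted p = 0.0197), Prim2, which fell by 0.61 (SE 0.17, adjusted p = 0.0313), and Fen1 and Rpa1, which fell by 0.49 each, in limma. Rpa2 fell by 0.45 and Rrm1 by 0.61 (SE 0.15, adjusted p = 0.0103). Of these 7 genes, 3 have another probe set of opposite sign: Pole2 at 0.35, Prim2 at 0.62 (with a further one at -0.10) and Rrm1 at 0.07 (with a further one at -0.65).

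Mcm10 read 8.77, 8.83 and 8.78 in DN2 and 7.28, 7.83 and 8.04 in DN3, and Rrm1 11.68, 11.78 and 11.55 against 11.00, 11.32 and 10.86. All DN3 arrays were below all DN2 arrays for both genes. Such separation, in either direction, held for 60.0% of members and 24.0% of all genes. Over the 40 members, 36 differences were below 0, with a median of -0.39, where all genes had 0.03 and genes of mean level over 8 had -0.11. Below 0 were 8222 of 18193 differences over all genes and 2722 of 4226 over those of mean level over 8. On the probe sets used, the Mcm2 to Mcm7 genes had differences from -0.45 to 0.18, and none passed. Other probe sets of these genes lay lower, at -0.75 for Mcm2, -0.38 for Mcm4, -0.92 and -0.68 for Mcm5, -0.66 for Mcm6 and -0.78 for Mcm7, while a dim Mcm6 probe set gave -0.03. The count fell to 2 without DN3 replicate 1, to 3 without DN3 replicate 2 and to 2 without any single DN2 array, and to 3 after quantile normalization. Shares of all genes under these settings are not printed.

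Measured across both steps at once, DN3 against ETP gave 0 of 40 called genes in set 1 (9 at an unadjusted p under 0.05; 10.8% of all genes called) and 3 of 40 in set 2 (8.81% of all genes called, 5.58% lower). In set 2 Pole fell by 0.88 (SE 0.26, adjusted p = 0.0267 by limma), Gins1 by 0.58 (SE 0.18, adjusted p = 0.0356) and Rpa1 by 0.44 (SE 0.14, adjusted p = 0.0481). Pole read 8.43, 8.43 and 8.31 in ETP and 7.50, 7.89 and 7.13 in DN3. In set 1 the same genes had -0.36, -0.26 and -0.33, and the difference between the sets was called for 0 of 40 genes (1 at an unadjusted p under 0.05; 0% of all genes called). The count of 3 was 0 without ETP replicate 4 or 6 and 1 without ETP replicate 5 or DN3 replicate 5 or 6, and quantile normalization left 1 gene, called higher.

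**Figure D3:**
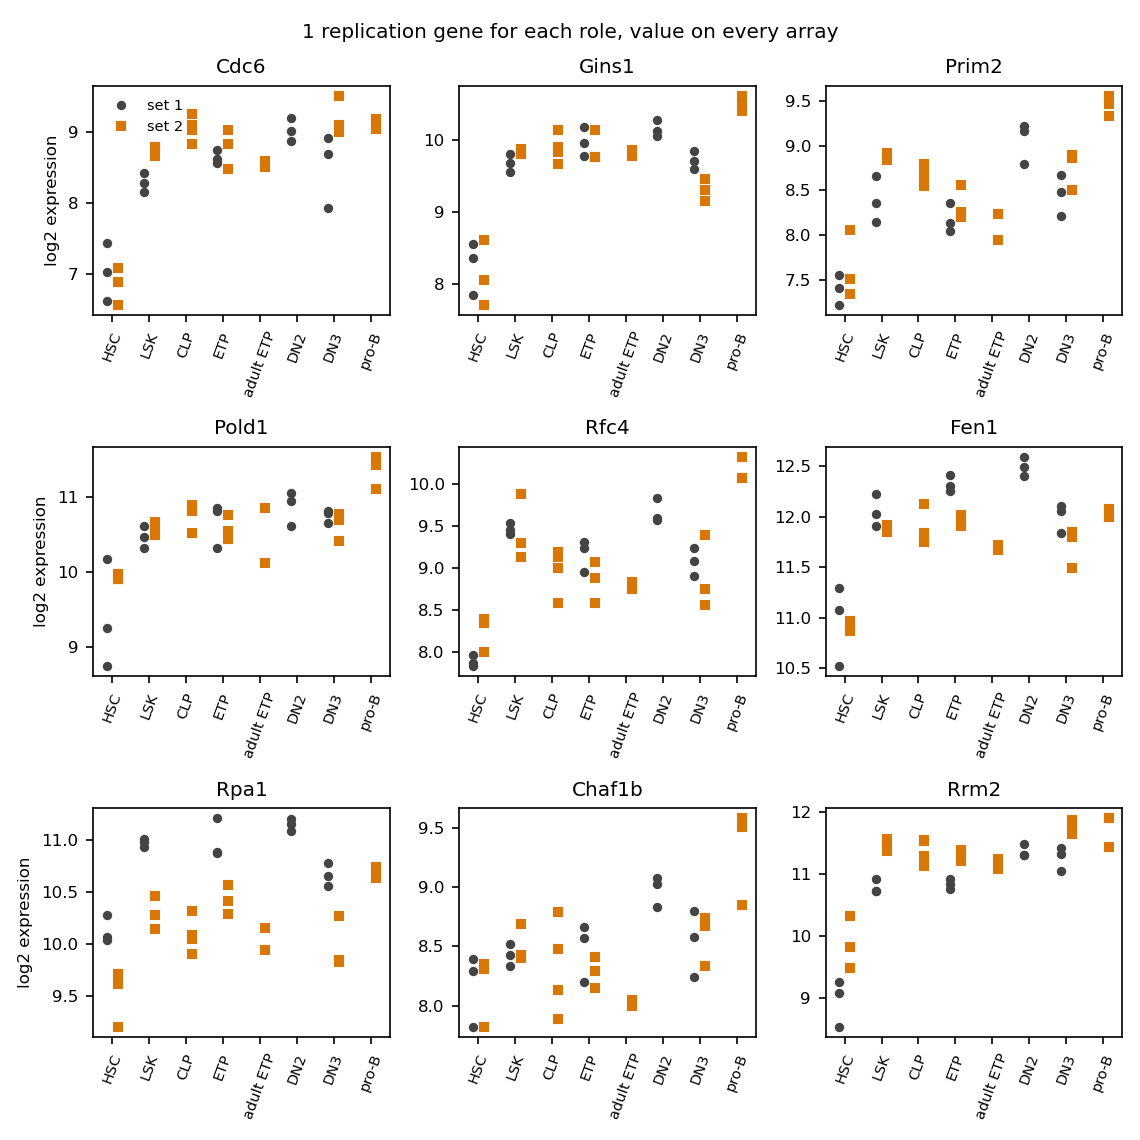
Each panel plots the log2 level of 1 replication gene, the widest ranging of its role in set 1, on every array by population; dark circles are set 1 and orange squares set 2, whose levels are not comparable. HSC arrays lie below all LSK arrays of their set in every panel, except for Chaf1b in set 1. The panels were chosen for wide range in set 1. Of all genes, 28.5% in set 1 and 32.3% in set 2 had no overlap of HSC and LSK arrays, in either direction.

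Between CLP and LSK, both labelled as candidate seeds of the thymus, 0 of the 40 replication genes passed in limma (5 at an unadjusted p under 0.05, all lower in CLP; 0.489% of all genes called). The differences ran from -0.70 for Mcm10 (95% interval -1.32 to -0.08) to 0.45 for Mcm4 (-0.18 to 1.08), with a median of -0.12, while genes of mean level over 8 had -0.09. Pcna was at 12.02, 11.97 and 11.96 in LSK and 12.04, 12.03, 11.94 and 12.21 in CLP, a difference of 0.07 (-0.16 to 0.30). Of the loading genes, 9 of 10 leaned higher in CLP, and all 4 genes of polymerase alpha and primase leaned lower, none past the threshold.

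Mitosis genes were lower in CLP: 14 of 19 passed, where 0.489% of all genes were called. All 19 lay below LSK, at a median of -1.20. Of the 4226 genes of mean level over 8, 2879 lay below LSK. Ube2c, which ubiquitinates mitotic cyclins, fell by 2.03 (SE 0.20, adjusted p = 4.27e-07 by limma). Their mean was 9.75 to 9.84 on the LSK arrays and 8.46 to 8.82 on the CLP arrays. Of the G1/S regulators, 1 of 12 passed, Ccna2, a cyclin of S and G2 phases, which fell by 1.18. The late granulocyte markers were higher in CLP by a median of 1.56, with 1 of 7 called, and their part in the result was not tested.

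From CLP to ETP, 0 of 40 replication genes were called (3 at an unadjusted p under 0.05, all higher; 2.06% of all genes called), with a median of 0.07, whereas 9 of the 19 mitosis genes were higher. The titled adult ETP arrays also gave 0 of 40 against ETP (3 at an unadjusted p under 0.05, all lower; 0.121% of all genes called), with a median of -0.13, from -0.85 to 0.33. Genes of mean level over 8 had a median of -0.14 in that comparison. With 2 titled adult arrays, its intervals were wide.

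**Figure D4:**
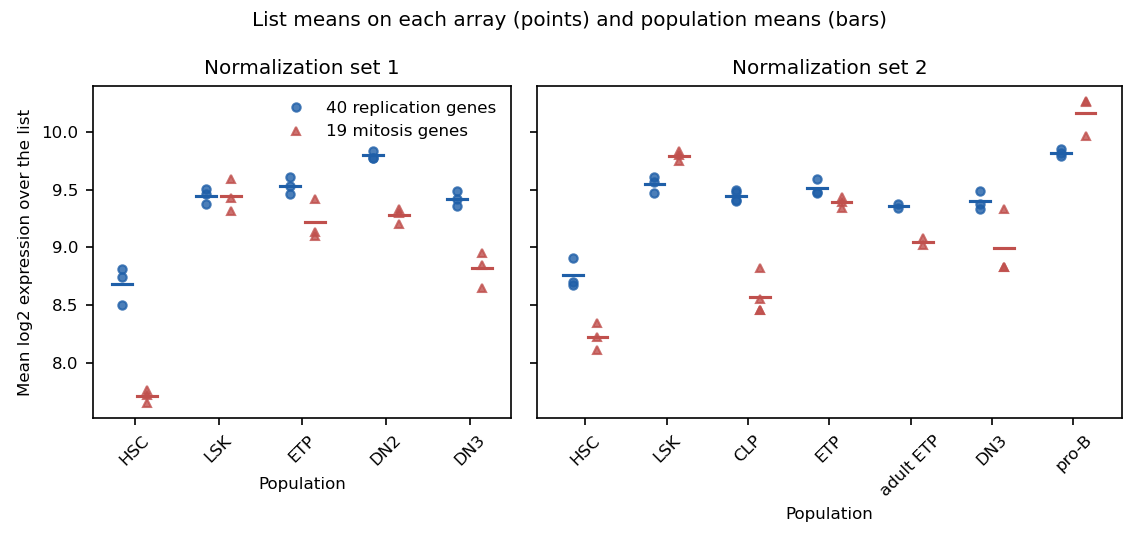
Points are single arrays and bars population means of the mean log2 level over the 40 replication genes (circles) and over 19 mitosis genes (triangles), by population and set. In set 2, replication means in LSK and CLP lie between 9.40 and 9.61 while mitosis means are 9.75 to 9.84 in LSK and 8.46 to 8.82 in CLP; both lists are lowest in HSC.

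Between CLP and pro-B cells the machinery rose again, but not all of its parts. Of 40 replication genes, 20 were higher and 5 lower in pro-B cells (17.3% of all genes called, 10.5% higher and 6.82% lower), with a median of 0.53 against 0.04 over all genes and 0.14 over those of mean level over 8. Higher genes came from every role group: Mcm10 rose by 1.45 (SE 0.30, adjusted p = 0.000964 by limma), Tk1 by 1.33 (SE 0.25), Rfc4 by 1.17 (SE 0.18, adjusted p = 2.38e-05) and Lig1 by 1.01 (SE 0.18). Chaf1b rose by 0.99, Pola1 by 0.80, Pole by 0.72 and Rpa3 by 0.65. Of the loading genes 1 rose on the probe sets used, Mcm7, by 0.42, and its other probe sets gave 1.03, 0.63 and -0.43. Of the 25 called genes 18 have other probe sets, and 8 of these have at least 1 of opposite sign. Among the higher genes, these include Pola2 at -0.28 (with a further one at 0.47) and Chaf1b at -0.02.

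Array by array, Tk1 read 8.24, 7.78, 7.93 and 7.18 in CLP and 9.37, 9.21 and 8.75 in pro-B cells, and Lig1 9.70, 9.87, 9.93 and 9.53 against 10.65, 10.83 and 10.83. Neither gene's arrays overlapped, and the same, in either direction, held for 60.0% of members and 21.7% of all genes. Rfc4 read 8.59, 9.13, 9.01 and 9.19 in CLP and 10.32, 10.07 and 10.07 in pro-B cells, also without overlap, and Chaf1b 8.79, 7.89, 8.48 and 8.13 against 9.58, 9.51 and 8.85. Without pro-B replicate 1 the count was 16, of which 13 were higher and 3 lower.

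The 5 lower genes were the helicase subunits Mcm4, Mcm6, Mcm5 and Mcm2 and the clamp loader gene Rfc2, at -1.96, -1.44, -0.88, -0.75 and -0.69. The pro-B arrays did not agree among themselves: Mcm4 read 8.07, 8.95 and 10.48 there and 10.88 to 11.37 in CLP. Mcm6 read 10.06, 10.79 and 11.74 against 12.19 to 12.40, and Mcm5 10.21, 10.13 and 11.37 against 11.33 to 11.74. Mcm2 read 7.96, 8.08 and 9.44 against 9.08 to 9.38, so that pro-B replicate 3 lay among the CLP arrays or nearest to them for these 4 genes.

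Other probe sets of the same genes did not show the fall. The second Mcm4 probe set gave 0.09, the other Mcm5 probe sets 1.01 and -0.05, the other Mcm6 probe sets 0.05 and -0.12, the second Mcm2 probe set 0.60 and the other Rfc2 probe sets 0.18 and -0.18. For Mcm4, Mcm5, Mcm6 and Rfc2 the probe set used has a name ending in _x_at, Affymetrix's mark for probes that may also match other transcripts. Over the 88 probe sets of the 40 genes, the 12 ending in _x_at had a median of -0.15 and the other 76 a median of 0.60. Over all probe sets of mean level over 8, the medians were -0.10 for 721 ending in _x_at and 0.14 for 6739 others.

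With _x_at probe sets left out, a setting chosen after seeing the data, 24 genes were higher in pro-B cells and 1, Mcm2, was lower. The share of all genes called under that setting is not printed here, so these counts cannot be read as particular to the replication genes. The Gapdh control probe sets (3′ minus 5′, a measure of how far cDNA reached) gave 1.70 to 2.08 in pro-B cells and 1.97 to 2.82 in CLP; its part in the result was not tested. The late granulocyte markers were called for 0 of 7 and the macrophage markers for 2 of 5, higher in pro-B cells, at list means of 5.02 to 6.00 against 4.27 to 4.88; their part was not tested either.

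**Figure D5:**
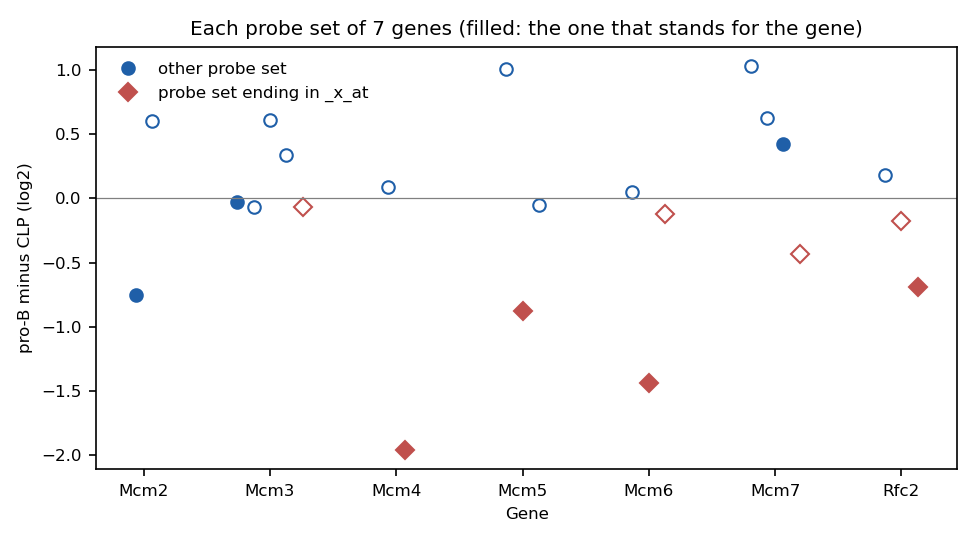
Each symbol is the pro-B minus CLP difference (log2) of 1 probe set of the 7 genes on the horizontal axis; filled symbols are the probe sets that stand for the genes, red diamonds have names ending in _x_at and blue circles do not. For Mcm4, Mcm5 and Mcm6 the filled diamond lies at -1.96, -0.88 and -1.44 while other probe sets lie between -0.12 and 1.01.

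DN3 and pro-B cells, the committed precursors of the T and B lineages, differed in 23 replication genes. In DN3, 20 were lower and 3 higher (18.9% of all genes called, 11.8% lower and 7.12% higher), with a median of -0.54 against -0.02 over all genes and -0.23 over those of mean level over 8. This comparison shares the pro-B arrays with the one above. Gins2 fell by 1.54 (SE 0.21, adjusted p = 3.13e-06 by limma), from 11.20, 11.30 and 10.70 in pro-B cells to 9.88, 9.44 and 9.25 in DN3, and Gins1 by 1.20, Pole by 1.31 and Rfc4 by 1.25. All 3 RPA genes were lower, with differences from -0.79 to -0.42. The Gapdh 3′ minus 5′ value was 2.18 to 2.58 in DN3 and 1.70 to 2.08 in pro-B cells, without overlap. Late granulocyte markers were lower in DN3 for 3 of 7 (list means 5.07 to 5.46 against 6.76 to 7.51) and macrophage markers for 2 of 5 (4.33 to 4.58 against 5.02 to 6.00); the part of these in the result was not tested.

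The 3 genes higher in DN3 were Mcm4, Mcm5 and Mcm6, on the same _x_at probe sets. Without _x_at probe sets 24 genes were lower and 0 higher, and the share of all genes under that setting is again not printed. Rrm2 was level at 0.01 (95% interval -0.35 to 0.38) on its _x_at probe set, while its other 2 probe sets gave -1.38 and -0.65. Of the 23 called genes 18 have other probe sets, and 7 of these have at least 1 of opposite sign. The count of called genes was 15 without DN3 replicate 6.

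Within a set the members largely rose and fell together from array to array. The correlation of a member with the mean of the others had a median of 0.84 over the 15 arrays of set 1 and 0.78 over the 21 arrays of set 2; arrays of a population share their cell type, so these values describe the pattern and carry no test. Dut was highest, at 0.98 and 0.93, and Orc1 lowest, at -0.16 and -0.34. Mcm4, Mcm6 and Rfc2 dropped from 0.63, 0.58 and 0.79 in set 1 to -0.22, -0.27 and 0.00 in set 2. Cdt1, Mcm2, Mcm5 and Pole also dropped, from 0.95, 0.81, 0.68 and 0.62 to 0.44, 0.39, 0.20 and 0.27. The sets hold different populations, and the cause of these drops was not tested.

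The 10 genes outside the list whose levels followed the members' mean most closely were Tipin, Asf1a, Lsm6, Ezh2, Psmd14, Cdv3, Nme1, Snrpf, Gmnn and Pclaf, with mean correlations over both sets from 0.968 for Tipin to 0.928 for Pclaf. Tipin rose from 9.47 ± 0.24 in HSC to 10.27 ± 0.20 in LSK and 10.63 in DN2 in set 1 (SD, n = 3). In set 2 Tipin had its lowest mean in HSC, at 9.22, and its highest in pro-B cells, at 10.82.

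Many other genes of the pathway rose with the list across the HSC to LSK step. Of all genes, 9.38% were higher in set 1 and 9.58% in set 2, with 17.4% and 17.5% called in either direction. Of 14 further licensing and firing genes, 8 were higher in LSK in each set and 0 lower, led by Ticrr, a helicase activation factor, at 1.67 and 1.8. Of 16 further fork and repair-linked genes, 12 were higher in set 1 and 9 in set 2, led by Timeless, a fork protection protein, at 1.24 in both. Of 7 histone supply and methylation-copying genes 6 and 5 were higher, led by the histone chaperone gene Asf1b at 1.32 in set 1 and Uhrf1, which helps copy DNA methylation, at 1.70 in set 2. Of 7 further nucleotide genes, 2 and 4 were higher and 1 was lower in each set: Samhd1, which breaks down dNTPs, fell by 0.70 and 1.30.

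Along the thymic stages Samhd1 fell by 2.59 (SE 0.24, adjusted p = 6.12e-09 by limma) from ETP to DN2 and fell by 1.16 (SE 0.24, adjusted p = 0.00284) from DN2 to DN3. Of the further fork genes 2 of 16 were higher in DN2 than in ETP, where 2.12% of all genes were higher. These were Chtf18 and Atad5, which act on clamp loading and unloading, at 0.54 and 0.50. In DN3 4 of 16 were lower than in DN2, led by Clspn at -1.42, where 3.25% of all genes were lower. Of the 12 G1/S regulators, 5 and 6 were higher in LSK than in HSC (9.38% and 9.58% of all genes), led by Ccna2 at 2.00 and 1.68. In pro-B cells 5 were higher than in CLP (10.5% of all genes), led by E2f2, an E2F transcription factor, at 2.95. Of the 19 mitosis genes, 18 and 17 were higher in LSK than in HSC, with medians of 1.91 and 1.70. In pro-B cells 19 of 19 mitosis genes were above CLP, at a median of 1.51. Of 6739 probe sets of mean level over 8 without the _x_at ending, 4069 were above CLP.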

How the data were processed

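Total RNA from 36 sorted samples was amplified with the Nugen WT-Ovation Pico kit and hybridised to Affymetrix arrays, per the labels' protocols. The authors deposited 1 table of log2-like values for 45101 probe sets, for which the submitters' processing notes name RMA. Neither its version nor the base of the logarithm is given in the sources used here, and the values were read as log2. The 2 normalization sets were inferred from label style and array medians (5.12 to 5.22 in set 1, 5.84 to 5.95 in set 2). The 64 control probe sets were left out; 34945 probe sets name 1 gene, 932 several and 9160 none. The single-gene probe set of highest mean stood for each of 18193 genes. Levels of different probe sets were not compared.

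A mean for each of the 12 population and set combinations was fitted over all 36 arrays by lmFit and eBayes (limma 3.58.1, R 4.3.3), with 13 within-set differences, 3 differences between sets and Benjamini-Hochberg adjustment over all genes; a call is an adjusted p under 0.05. The script was tested on simulated data. Counts at an unadjusted p under 0.05 were made for the members only, so no share of all genes stands beside them. The series text calls the arrays biological replicates, and the number of arrays limits the precision.

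The members, gene lists and tests were chosen with earlier results of these data known. Array values go to the widest member of each role and the 3 narrowest in set 1, to members that moved against the majority and to further called members chosen after their values were seen; full statistics go mainly to the largest called difference of a role. Alternatives were a common set term, the spread of 1 set, median centring, quantile normalization, the mean of a gene's probe sets, a filter on low genes, a 2-fold threshold, a replicate block and each array left out; array weights and leaving out _x_at probe sets were chosen after seeing the data. Deviations of same-numbered arrays had a median correlation of -0.003 in set 1 (-0.053 to 0.107) and -0.014 in set 2 (-0.189 to 0.205). Arrays of different numbers had medians of 0.004 and -0.003. With so few arrays in a group, this cannot show whether the numbers pair the arrays. The main fit did not pair them.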

Additional observations from a re-analysis of the deposited data

Results flagged for a closer look

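In 3 of 41 values tested in the 4 CLP arrays, 1 array lay far from the others, where chance alone gives about 1 in 20. Orc6 read 9.13 on CLP replicate 3 and 8.66 to 8.73 on the others. Rfc2 read 9.87 on the same array and 10.24 to 10.29 on the others. Mcm5 read 11.74 on CLP replicate 2 and 11.33 to 11.38 on the others.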

How the results depend on the processing

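Counts here are of the 40 replication genes called by limma. The shares of all genes called under the same settings are not printed beside them, nor beside such counts in the sections above. A change in count therefore cannot be read as particular to these genes. With a common population and set term, fitted over all arrays, each pair of populations had a single estimate that covers both sets. It called 4 for DN2 against ETP, 12 for DN3 against DN2 and 9 for DN3 against ETP (2 higher, 7 lower). For ETP against CLP it called 1, and 1 for titled adult ETP against ETP. With the spread of 1 set, DN2 against ETP gave 2, and DN3 against ETP 1 in set 1 and 1 in set 2. Quantile normalization gave 3 for DN3 against DN2 and 1, in the opposite direction, for DN3 against ETP in set 2. The mean of a gene's probe sets gave 1 for ETP against LSK in each set, 4 for DN2 against ETP, and 4 and 5 for DN3 against ETP in sets 1 and 2. A 2-fold threshold gave 11 and 12 for LSK against HSC, 0 for DN2 against ETP, 2 for DN3 against DN2, 0 for DN3 against ETP in set 2, 7 for pro-B against CLP and 8 for DN3 against pro-B. Without _x_at probe sets, chosen after seeing the data, DN2 against ETP gave 2 and DN3 against ETP in set 1 gave 1. Array weights, also chosen after seeing the data, gave 3 for DN2 against ETP, 2 for ETP against LSK in set 2, 1 for ETP against CLP, 2 for titled adult ETP and 8 for DN3 against ETP in set 2. The cause of these changes was not tested.

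Some differences changed sign. With the mean of probe sets, Mcm5 gave 0.03 for pro-B against CLP and -0.07 for DN3 against pro-B, and Rrm2 -0.67 for DN3 against pro-B. Without _x_at probe sets, pro-B against CLP gave 0.09 for Mcm4, 1.01 for Mcm5, 0.05 for Mcm6 and 0.18 for Rfc2, and DN3 against pro-B gave -0.28, -1.0, -0.25 and -0.48 for these genes and -0.65 for Rrm2.

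With 1 array left out, counts ran from 22 to 28 for LSK against HSC in set 1 and 22 to 27 in set 2, from 2 to 5 for DN3 against DN2, from 0 to 2 for DN3 against ETP in set 2, from 16 to 24 for pro-B against CLP and from 15 to 27 for DN3 against pro-B.

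The replicate block, on numbers whose pairing is not established, gave 27 and 28 for LSK against HSC, 7 for DN3 against DN2, 2 for DN3 against ETP in set 2 and 22 for pro-B against CLP. No value under the block was obtained for CLP against LSK, ETP against CLP, titled adult ETP against ETP or DN3 against pro-B.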
